A study of Mus musculus with 2 samples.

Results

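Neuropeptide precursors that define hypothalamic neurons other than AgRP neurons were examined in sorted AgRP cells, as 39 genes listed by name for what they encode, with earlier results of these data known. A gene was matched where probe sets of the array carried its symbol and no other. This gave 38 of the 39, with Penk under its older symbol Penk1, out of 22296 symbols on the array. Kiss1, the kisspeptin gene, had no probe set of its own and is not described. The study compared FoxO1 KO with FoxO1 heterozygous KO mice, whose cells are the controls and themselves carry the FoxO1 deletion in heterozygous form. Both were of mixed background, from littermate cohorts matched for age and sex, with food and water freely available. Cells labelled as hypothalamic neurons expressing agouti-related peptide were collected by FACS and total RNA was hybridised to 1 exon-level array per genotype. The sources used here do not give the age, the Cre line or promoter behind the deletion, the marker used for the sort, or how many mice stand behind an array.

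With 1 array per genotype there is no replicate and no test, so each value below is a measurement on 2 arrays. All values are on the log2 scale, where a difference of 1 is a 2-fold change, and differences are KO minus heterozygous KO. A probe set is a group of probes for a short stretch of a transcript, so a gene has several. Probe sets entered where the average of both arrays reached a floor of 5.86, the median of that average over the whole array. A gene with at least 3 such probe sets was evaluated, which held for 32 members and 16639 genes in all. Its difference was the median over its probe sets, and the SD beside it is over probe sets and not over mice. A gene counts as at least 2-fold lower or higher where that median was at least 1 in size and no fewer than 75% of the probe sets agreed in sign. Level and difference are separate medians, so a difference need not equal the gap between levels.

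Neuropeptides are made as larger precursor proteins that enter the secretory pathway, are cut by prohormone convertases and are released from dense core granules. Each hypothalamic population is known by the precursors it makes, and several of them act on feeding. Pro-opiomelanocortin neurons of the arcuate nucleus oppose AgRP neurons through the melanocortin receptors. In mice, neurons of the paraventricular nucleus that make thyrotropin-releasing hormone or PACAP excite AgRP neurons. AgRP neurons make agouti-related peptide and neuropeptide Y, so the genes below are mainly known from their neighbours. In bulk samples, fewer cells of a type and less RNA per cell cannot be told apart.

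Of the 32 evaluated precursors, 4 were at least 2-fold lower on the KO array (12.5%), against 1.12% of all evaluated genes. They were Npvf, Tac1, Penk and Oxt. No precursor was at least 2-fold higher, against 1.13% of all genes. Most members have few probe sets, and among the 6150 genes with 3 to 7 of them, 1.58% were 2-fold lower and 1.93% higher. Over all genes 188 were higher and 186 lower, and with differences centred on the gene median of -0.11 these counts were 270 and 127. With that centring 1 member, Npvf, was 2-fold lower, and 2 members were with a 75th percentile floor, with a floor on both arrays or with the trend on level removed. Several probe sets of the 4 genes were under the floor on the KO array, 3 of 5 for Npvf, 2 of 7 for Tac1 and 1 of 5 for Oxt, and entered through the heterozygous array, so the sizes of these differences are uncertain. Below 0 lay 26 of the 32 members (81.25%), against 65.2% of all genes. The median over members was -0.19, against -0.11 over all genes, and without the 4 it was -0.12 over 28 members. The other 28 ran from -0.60 to 0.33.

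The sequences before the transcription starts of 3 of the 4 lower genes are shown because these genes were lower together, with Cartpt, which was not lower, beside them. Each runs from 250 bases before to 50 after the start in RefSeq's mouse genome GRCm38.p6, written 5′ to 3′ on the gene's own strand. Capitals mark the forkhead core AAACA and its reverse complement TGTTT, the cAMP response element TGACGTCA, and the TATA box TATAAA, each searched on both strands. The longer forkhead motif GTAAACA, which contains the core, and its reverse complement TGTTTAC were searched too.
Tac1, chr6:7554811-7555110, + strand: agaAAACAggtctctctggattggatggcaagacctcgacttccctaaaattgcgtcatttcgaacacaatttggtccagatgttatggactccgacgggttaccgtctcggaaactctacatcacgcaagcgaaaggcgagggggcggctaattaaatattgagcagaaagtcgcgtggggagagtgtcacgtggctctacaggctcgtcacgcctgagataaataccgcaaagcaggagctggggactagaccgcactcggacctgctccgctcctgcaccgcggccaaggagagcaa
Npvf, chr6:50654396-50654695, - strand: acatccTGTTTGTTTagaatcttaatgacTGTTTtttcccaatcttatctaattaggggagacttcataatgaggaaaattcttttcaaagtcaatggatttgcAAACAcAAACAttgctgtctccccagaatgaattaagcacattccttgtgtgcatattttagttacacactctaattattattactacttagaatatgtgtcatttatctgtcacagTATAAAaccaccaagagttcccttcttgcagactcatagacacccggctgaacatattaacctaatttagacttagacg
Oxt, chr2:130575919-130576218, + strand: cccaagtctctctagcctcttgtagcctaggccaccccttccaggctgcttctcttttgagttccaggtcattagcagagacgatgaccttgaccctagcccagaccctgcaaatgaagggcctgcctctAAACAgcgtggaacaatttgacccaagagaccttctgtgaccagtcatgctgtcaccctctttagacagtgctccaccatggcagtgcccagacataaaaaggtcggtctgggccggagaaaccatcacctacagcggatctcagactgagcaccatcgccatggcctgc
Cartpt, chr13:99900634-99900933, - strand: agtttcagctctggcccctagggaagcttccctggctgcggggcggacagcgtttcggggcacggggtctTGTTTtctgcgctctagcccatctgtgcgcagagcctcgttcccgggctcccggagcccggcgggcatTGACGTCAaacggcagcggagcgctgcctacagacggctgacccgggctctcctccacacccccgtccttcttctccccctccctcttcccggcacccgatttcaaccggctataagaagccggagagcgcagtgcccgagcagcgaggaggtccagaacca

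The Npvf stretch held the forkhead core 5 times, with 2 of the matches overlapping, whereas Tac1, Oxt and Cartpt each held it 1 time. How many of all windows hold the core 5 times was not counted. That core is short, and 50.5% of 32851 promoter windows hold it, as did 18 of the 30 members with a window. These shares are of windows, whereas a member counts where any window of its gene holds the motif. The 18 include Kiss1, which had no probe set of its own. The longer GTAAACA was in 3.65% of windows and in 1 member, Cck, and in none of the 4 shown. The cAMP response element was in 1.79% of windows and in 3 members, Cartpt, Sst and Ucn, none of which was 2-fold lower. The TATA box was in 13.6% of windows and in 8 members, among them Npvf, where it began 29 bases before the start. These are matches of letters and not measured sites.

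Tac1 encodes the precursor of the tachykinins substance P and neurokinin A. It stood at 6.36 on the KO array, against 8.84 on the heterozygous array, a difference of -2.20 (SD 1.95), with 6 of 7 probe sets lower. The 5 that were at least 2-fold lower read 4.87 against 10.04, 6.36 against 10.16, 4.81 against 7.70, 7.05 against 9.25 and 7.68 against 8.84. These drops reached -5.17 in size, while the remaining probe sets scarcely differed, at 8.29 against 8.37 and 6.15 against 6.04. The Tac1 probe set under the floor was lower too, at 4.52 against 6.79. Tac1 thus had probe sets far lower on the KO array and probe sets at like values on both, and its SD was larger than that of 99.0% of evaluated genes. With the floor asked of both arrays, 5 probe sets were left and the difference was -1.16. Centring on the gene median turned a near-zero probe set positive and ended the call, at a difference of -2.09. Taking only the probe set with the highest mean gave -0.08.

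Tac2, the precursor of neurokinin B, another tachykinin, did not share this. Its levels were 7.26 on the KO array, against 7.37 on the heterozygous array, with 2 of 4 probe sets lower and a difference of -0.04 (SD 0.39). Tacr1, the receptor for substance P, was at -0.06 and Tacr3, the receptor for neurokinin B, at -0.09.

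Npvf encodes RFamide-related peptides, known from neurons of the dorsomedial hypothalamus. Its 5 probe sets above the floor read 10.14, 6.97, 5.81, 5.76 and 3.94 on the KO array, against 10.94, 9.33, 10.09, 7.86 and 8.24 in the same order on the heterozygous array. All 5 were lower on the KO array and 4 of them at least 4-fold, and the probe set under the floor was lower as well, at 3.90 against 5.90. The gene difference was -2.36 (SD 1.51), with levels of 5.81 against 9.33. The KO level was under the floor, so no fold is given. With the floor asked of both arrays, too few probe sets were left to evaluate Npvf. The probe set with the highest mean differed by -0.79.

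The other RFamide genes measured were Npff, the neuropeptide FF precursor, and Prlh, the prolactin-releasing peptide precursor. Npff stood at 7.59 against 7.56, with 3 of 4 probe sets lower and a difference of -0.18 (SD 0.56). Prlh had 2 probe sets, too few to evaluate, at 9.13 and 6.11 on the KO array against 9.20 and 6.98 on the heterozygous array. Npffr2, a receptor of this family, ran the other way at 1.73 (SD 1.65), with 3 of 4 probe sets higher. Npffr1 was not evaluated.

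Penk, the enkephalin precursor, was lower in 4 of 4 probe sets, with levels of 7.33 against 8.50 and a difference of -1.05 or 2.07-fold (SD 0.99). Its probe sets fell into unlike sizes. They read 8.47 and 8.11 on the KO array against 10.20 and 10.33 on the heterozygous array, and 6.56 and 6.35 against 6.80 and 6.71. The Penk call lies at the edge of the rule, and its difference was -0.98 with no floor, -0.94 after centring on the gene median and -0.99 with the trend on level removed. The opioid relatives differed little. Pdyn, the dynorphin precursor, was at -0.07 (SD 0.16, 3 of 5 probe sets lower), and Pnoc, the nociceptin precursor, was at -0.03 (SD 0.25, 3 of 6). Of the opioid receptors, Oprk1 stood at -0.43 (SD 0.92), Oprm1 at -0.31 (SD 1.70) and Oprd1 at -0.24 (SD 0.53). Oprl1, the nociceptin receptor, was at -0.50 (SD 0.93).

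Oxt, the oxytocin precursor of magnocellular and paraventricular neurons, was lower in 5 of 5 probe sets by very different amounts. These read 3.59, 7.40, 7.05, 9.57 and 8.25 on the KO array, against 9.84, 10.80, 8.06, 10.04 and 8.42 in the same order on the heterozygous array. The differences thus ran from -6.25 to -0.16, the widest spread among the members, and the SD of 2.57 was larger than that of 99.9% of evaluated genes. The gene difference was -1.01 or 2.01-fold, with levels of 7.40 against 9.84. This sits on the threshold, and the call ended at -0.74 with a 75th percentile floor or a floor on both arrays, -0.90 after centring on the gene median, -0.95 with the trend removed and -0.47 with the probe set of highest mean. By the mean over probe sets Oxt stood at -2.26.

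Avp, the vasopressin precursor and neighbour of Oxt in the genome, was lower in 4 of 5 probe sets without passing the rule. Its probe sets read 9.91, 8.33, 7.69, 7.03 and 6.90 on the KO array, against 9.77, 8.82, 8.26, 8.49 and 8.19 in the same order on the heterozygous array. The difference was -0.57 (SD 0.65), within the lowest 6.61% of genes. Avpr1a, a vasopressin receptor, stood at -0.88 (SD 1.61) with 4 of 4 probe sets lower, and Oxtr was not evaluated.

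**Figure D1:**
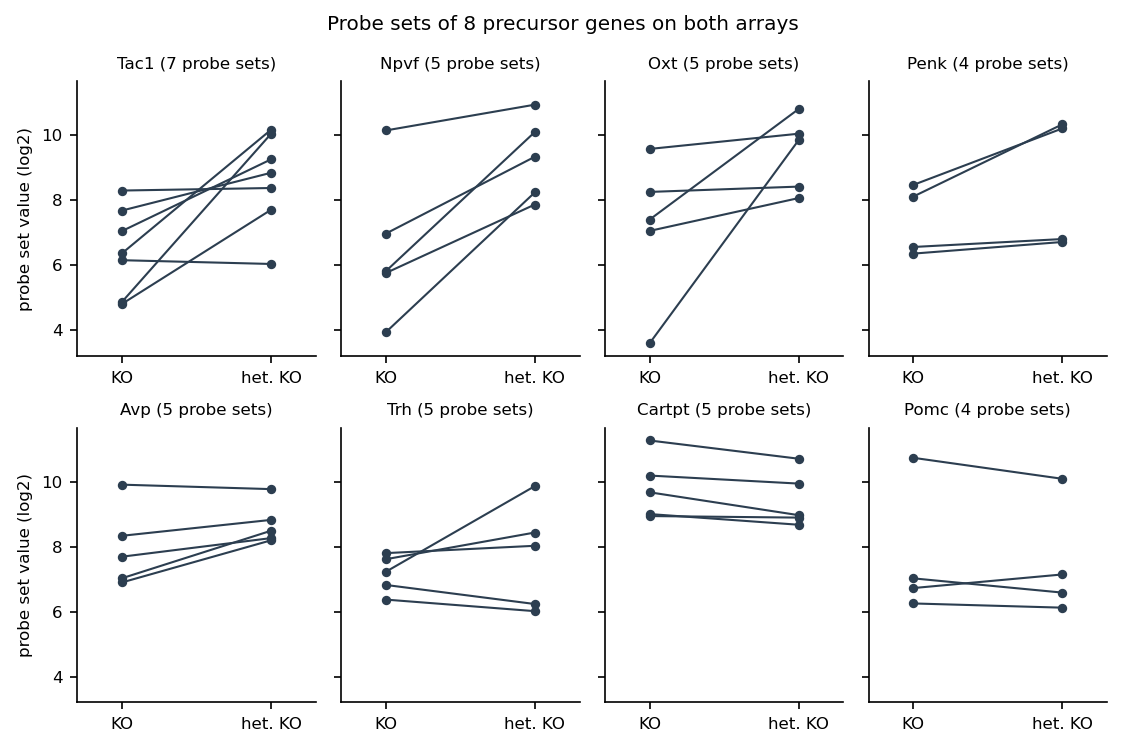
Values of each probe set above the floor (log2) on the KO array and the heterozygous KO array, joined by a line, for 8 precursor genes with 1 array per genotype. In Tac1, Oxt and Penk some lines climb steeply to the heterozygous array while others are nearly flat, all 5 lines of Npvf climb, and the lines of Cartpt descend slightly to it in 5 of 5 probe sets.

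Pomc and Cartpt, the precursors of the melanocortin and CART peptides of feeding-suppressing arcuate neurons, were not lower. Cartpt was higher in 5 of 5 probe sets, which read 11.26, 10.19, 9.67, 9.00 and 8.94 on the KO array against 10.70, 9.94, 8.97, 8.67 and 8.89 in the same order on the heterozygous array. Its difference of 0.33 (SD 0.26) was the highest of any evaluated member and did not reach 2-fold. Pomc was at 0.28 (SD 0.46), higher in 3 of 4 probe sets, which read 10.73, 7.02 and 6.25 against 10.09, 6.59 and 6.12. The Pomc probe set that was lower stood at 6.73 against 7.14. Over both genes 8 of 9 probe sets were higher on the KO array. These share the same 2 arrays and are not replicates, and neither gene reached 2-fold.

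Among the precursors that control the anterior pituitary, 3 of 4 evaluated were below 0, where 65.2% of all genes were, and none passed the rule. Trh, the thyrotropin-releasing hormone precursor, had probe sets in both directions. It read 7.23, 7.61, 7.80, 6.82 and 6.37 on the KO array, against 9.86, 8.43, 8.03, 6.24 and 6.02 in the same order on the heterozygous array. A single one of these accounts for a drop of -2.63, and the gene difference was -0.23 (SD 1.29). With that probe set alone, as the one of highest mean, Trh was at least 2-fold lower, where 1 probe set cannot show agreement in sign. Trhr, the receptor for this hormone, was at least 2-fold lower at -1.01 (4 of 4 probe sets lower, 6.35 against 7.49), and Trhr2 stood at 0.24. Trhr lies on the threshold, at -0.90 after centring on the gene median and -0.51 with a floor on both arrays.

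Ghrh, the growth hormone-releasing hormone precursor of the arcuate nucleus, had levels of 9.78 against 10.15 and a difference of -0.11 (SD 0.34). Above the floor 3 of 3 probe sets were lower. Those under it went both ways, at 6.25 against 3.82, 6.23 against 4.68, 4.96 against 5.24 and 3.95 against 4.57. Sst, the somatostatin precursor, was at 0.27 (SD 1.15), and its 3 probe sets disagreed, at 9.50 against 10.23, 9.64 against 9.36 and 10.21 against 8.65. Gnrh1, the gonadotropin-releasing hormone precursor, was at -0.33 (SD 0.87), with 3 of 4 probe sets lower. Crh, the corticotropin-releasing hormone precursor, had 1 probe set above the floor, at 6.87 against 7.05. Cort, which encodes the somatostatin relative cortistatin, had 2, at 8.29 and 7.63 against 8.73 and 8.33. The Crh relatives were Ucn, which encodes urocortin, at 0.15 with 3 of 4 probe sets higher, and Ucn3, whose 2 probe sets differed by 0.42 and -0.16.

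Neither galanin gene passed the rule. Gal, the galanin precursor, had levels of 7.27 against 7.66 and a difference of -0.60 (SD 0.69), the lowest of the members that did not pass. Of its 6 probe sets 4 were lower, by up to -1.27, and 2 were higher, by 0.27 and 0.28. The Gal probe set under the floor was higher, at 5.57 against 4.08. Its direction turned to 0.27 with a 75th percentile floor, with the probe set of highest mean and with the highest probe set on each array. Galp, which encodes galanin-like peptide of the arcuate nucleus, was lower in 4 of 4 probe sets by nearly the same amount, from -0.31 to -0.50, for a difference of -0.42. Its SD of 0.08 was among the smallest 0.288% of genes, in contrast to Tac1 and Oxt.

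Lateral hypothalamic precursors were Hcrt and Pmch, which encode orexin and melanin-concentrating hormone. Hcrt stood at 6.57 against 6.37, with 2 of 3 probe sets lower and a difference of -0.13 (SD 0.34). Pmch had 1 probe set above the floor, at 6.26 against 6.57, and 5 under it.

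Of 8 precursors known from the gut and brain or from the circadian clock, 6 were below 0 and none reached 2-fold. Of all genes, 65.2% were below 0. Nmu and Nms, the neuromedin U and neuromedin S precursors, were lower in 5 of 5 and 5 of 6 probe sets, at -0.32 (SD 0.11) and -0.35 (SD 0.25). Vip, the vasoactive intestinal peptide precursor of the suprachiasmatic nucleus, was at -0.33 (SD 0.43, 5 of 7 lower), and Grp, the gastrin-releasing peptide precursor, at -0.23 (SD 0.30, 3 of 4). Nmb, the neuromedin B precursor, was at 0.00 after rounding. Cck, the cholecystokinin precursor, was at 0.03 (SD 0.61) and Nts, the neurotensin precursor, at 0.17 (SD 0.68).

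Adcyap1, the PACAP precursor, had a median of -0.19 that stands for probe sets going far apart. Its 6 probe sets read 8.70, 6.43, 6.77, 7.18, 7.46 and 4.30 on the KO array, against 9.33, 7.19, 6.52, 6.08, 5.25 and 7.47 in the same order on the heterozygous array. They were lower and higher in equal number, from -3.18 to 2.21, with an SD of 1.85 that was larger than that of 98.6% of genes. No direction can be given for Adcyap1. Its receptor Adcyap1r1 was at -0.30 (SD 1.35, 15 of 24 probe sets lower).

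Vgf, a granin-like precursor of many neurons that is induced by activity, had 16 probe sets above the floor, of which 11 were lower. Its levels were 8.97 against 9.40 and its difference was -0.24 (SD 0.77). At least 2-fold lower were 3 of them, at 12.09 against 13.14, 11.95 against 13.20 and 8.64 against 11.00. The highest of the others was 0.80. Nppc, the C-type natriuretic peptide precursor, was at -0.10 (SD 0.17). Edn1 and Edn3, the endothelin precursors, were at -0.03 (SD 0.49) and -0.29 (SD 0.28), and Npb, the neuropeptide B precursor, at -0.05 (SD 0.47). The 1 probe set of Npw, the neuropeptide W precursor, above the floor stood at 7.99 against 7.60.

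**Figure D2:**
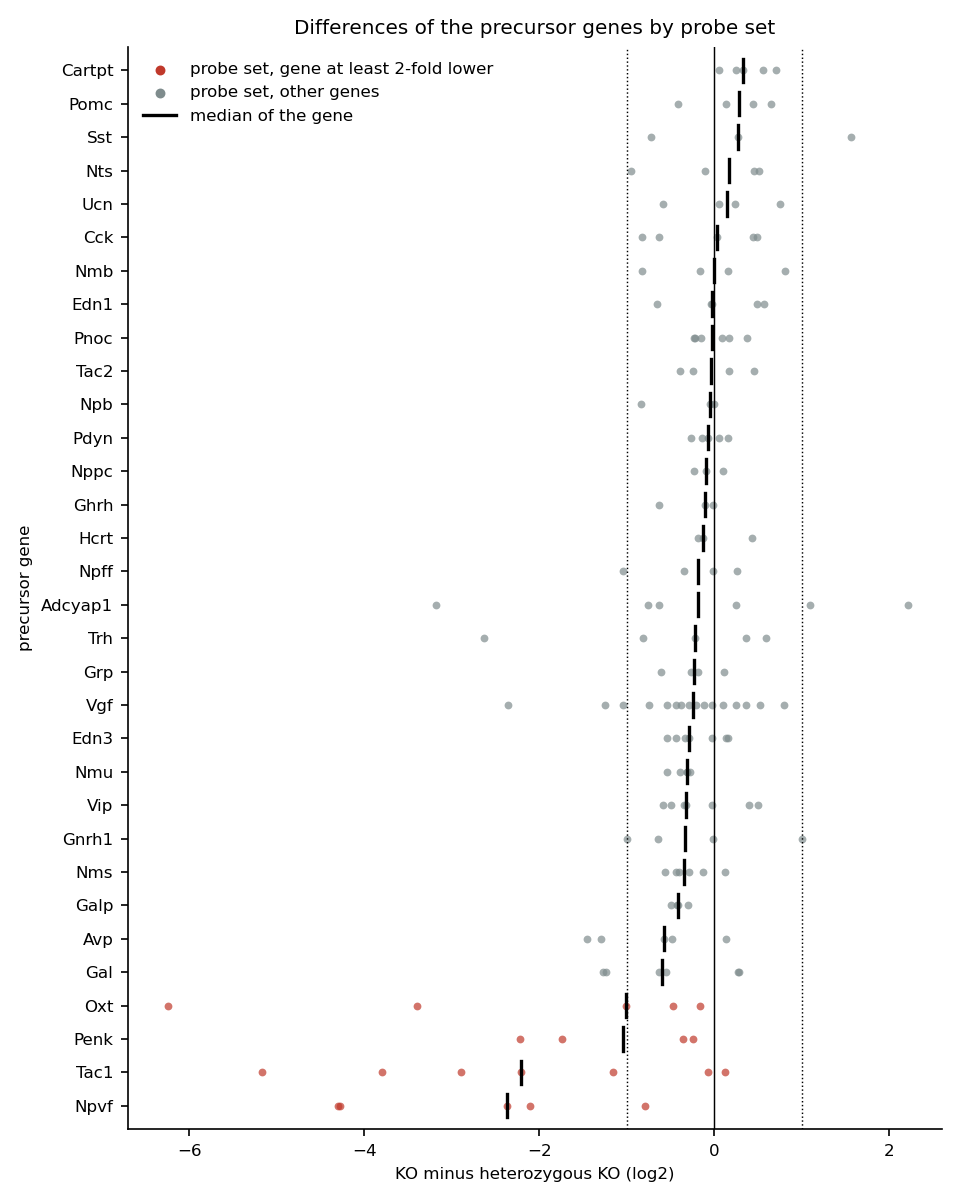
Difference of each probe set above the floor, KO minus heterozygous KO (log2), for the 32 evaluated precursor genes, with the gene median as a black bar and dotted lines at 2-fold. Tac1, Npvf, Penk and Oxt lie past the lower line, most other medians lie between 0 and -0.60, and the probe sets of Oxt, Tac1, Adcyap1 and Npvf spread the widest.

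Most of the large drops, counted by probe set, lay in the same 4 genes, which is to be expected because the rule chose them by these differences. Of 170 member probe sets above the floor, 24 were at least 2-fold lower (14.1%), against 11% of all probe sets with 1 symbol, and 3 were at least 2-fold higher (1.76%), against 9.24%. At least 4-fold lower were 14 (8.24%), against 2.6%, and 11 of these belong to Npvf, Tac1, Penk and Oxt. Without these 4 genes, 10 of 149 probe sets were 2-fold lower (6.71%) and 3 were 2-fold higher (2.01%). Leaving out the lowest genes makes the first share smaller, so it cannot be set against the 11% of all probe sets. Among the 70 member probe sets under the floor, 9 were at least 2-fold lower (12.9%), against 7.36% of all such probe sets, and 4 higher (5.71%), against 7.01%. Across the 32 members the levels of both arrays correlated at r = 0.641, against 0.868 across 16639 genes, where genes share 2 arrays and probes of fixed brightness. The 32 include the 4 genes with large gaps, and r was not calculated without them.

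**Figure D3:**
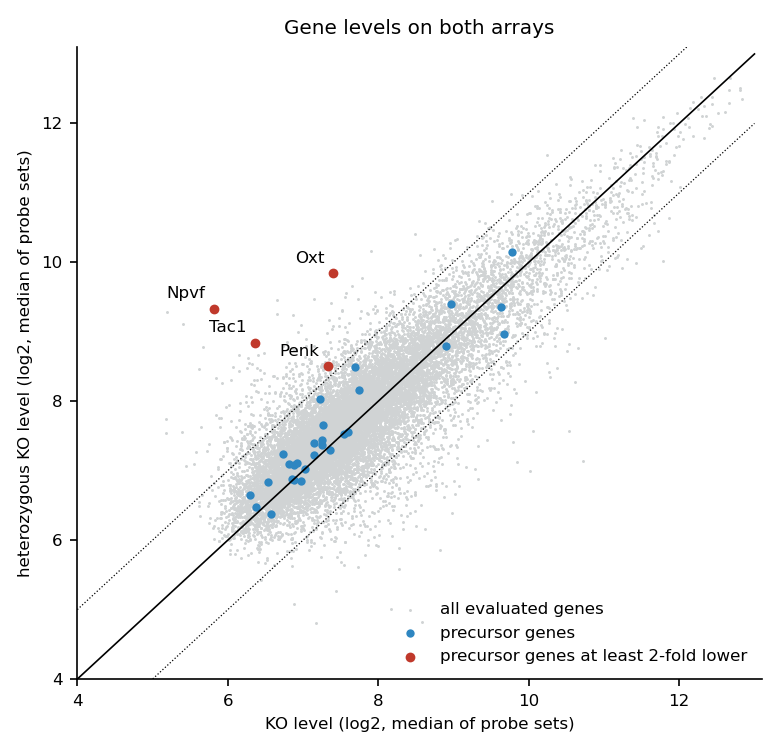
Level of each evaluated gene on the KO array (horizontal, log2) and on the heterozygous KO array (vertical, log2), with the 32 precursor genes in colour, the line of equal levels and dotted lines at 2-fold. Npvf, Tac1, Oxt and Penk lie above the upper dotted line, and the other precursors lie between the dotted lines.

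Other genes of peptide signalling were counted by the same rule. Of 48 receptors for these peptides 37 were evaluated. At least 2-fold lower was 1 (Trhr) and higher 1 (Npffr2), or 2.70% each against 1.12% and 1.13% of all genes. Below 0 were 29 of the 37, where 65.2% of all genes were, and their median was -0.18. Of 14 proteins that process precursors or build granules, none passed the rule. Their median was -0.16, from Cadps, a granule release factor, at -0.47 to Cpd, a carboxypeptidase, at 0.31. The convertases Pcsk1 and Pcsk2, which cut the precursors, stood at 0.16 and -0.18.

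Markers were compared for the cells that a sort could hold. The 10 AgRP neuron markers had a median of 0.09 and none passed the rule, with Ghsr lowest at -0.60 and Lepr highest at 0.41. Agrp had levels of 12.44 against 11.97 and a difference of 0.27, with 6 of 7 probe sets higher. Npy had levels of 12.19 against 12.31 but a difference of 0.14, with 4 of 6 probe sets higher. In the lists of markers of other neurons, 2 genes were at least 2-fold lower. These were 1 of 3 glutamate transporters (33.3%) and 1 of 17 further markers (5.88%), against 1.12% of all genes. Slc17a6, the vesicular glutamate transporter of many hypothalamic neurons, stood at 5.40 against 9.11, a difference of -4.29 with 9 of 11 probe sets lower. Of these 11, 7 were under the floor on the KO array, and with the floor asked of both arrays 4 were left, at -0.11, so its size is uncertain. The other 2 glutamate transporters of that list were at -0.15 and -0.25. Of 17 markers of further hypothalamic populations, Ddc, the decarboxylase of monoamine synthesis, was at least 2-fold lower at -1.55 (12 of 12 probe sets). Of these 12, 4 were under the floor on the KO array. With the floor asked of both arrays Ddc stood at -1.07. The list's median was -0.11 with 14 below 0, where 65.2% of all genes were below 0. Its gene levels spanned 6.28 to 8.17 on the KO array, against 6.50 to 8.55 on the heterozygous array. Th stood at -0.19, and Sim1, the highest of the 17, at 0.23 (SD 0.71, 5 of 7 probe sets higher). The part of these cells in the precursor values was not tested.

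Oligodendrocyte lineage markers were lower too, with 10 of 10 below 0, against 65.2% of all genes, and a median of -0.93. Their levels ran from 6.27 to 8.68 on the KO array, against 7.59 to 9.52 on the heterozygous array. Past the rule were Pdgfra at -2.41, Mag at -2.12, Cnp at -2.10, Gpr17 at -2.10 and Mbp at -1.11. They make up 50% of the evaluated list, against 1.12% of all genes. Under the floor on the KO array were 9 of 27 Pdgfra, 3 of 14 Mag and 2 of 6 Cnp probe sets. So were 1 of 5 for Gpr17 and 1 of 20 for Mbp. With the floor asked of both arrays, the differences were -1.80, -1.85, -2.32, -1.32 and -1.05 in the same order. Centred on the gene median, Mbp stood at -0.998 and just missed the rule. The 4 remaining marker lists had no member past it. Pituitary markers had a median of -0.17 (Prl -0.49, Cga 0.14), astrocyte and tanycyte markers -0.19 (Slc1a3 -0.73, Gfap 0.66), microglia markers -0.12 (Trem2 -0.30, Aif1 0.50) and endothelial markers -0.22 (Cdh5 -0.77, Pecam1 -0.05). Their part in the precursor values was not tested either. Foxo1, the targeted gene, was at 7.46 on the KO array, against 7.98 on the heterozygous array, a difference of -0.48 with 8 of 8 probe sets lower. The sources used here do not say which of these lie in the deleted part.

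**Figure D4:**
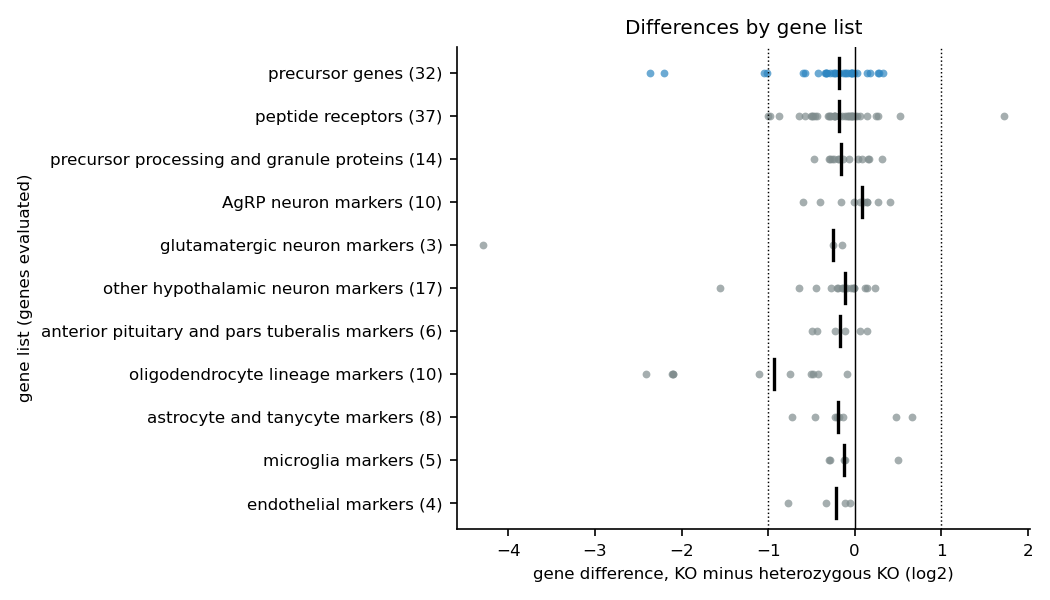
Gene differences, KO minus heterozygous KO (log2), by gene list, with the number of evaluated genes in brackets, the list median as a black bar and dotted lines at 2-fold. Precursor genes have a tail of 4 genes past the lower line, Slc17a6 lies farthest left at -4.29, and oligodendrocyte lineage markers have the lowest list median at -0.93.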

How the data were processed

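Gene expression in sorted AgRP neurons was measured on 1 exon-level array per genotype, and each array was assigned to its group from the source name in the labels. Per the labels' protocols, total RNA came from a Trizol extraction and its biotin-labelled cRNA from a Nugen protocol. The deposited log2 values were made with RMA and Partek, per the submitters' processing notes, with no versions given, and the log2 scale was read from the values. RMA as usually run gives both arrays nearly the same distribution, so they cannot show a change in total RNA. The KO values ran from 2.55 to 14.11 and the heterozygous values from 2.53 to 14.13. Arrays have no read depth, and precision is limited by their number.

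In the platform annotation 318760 of 1235936 probe sets carried 1 gene symbol, which were used, 6684 carried several and 910492 were listed with none. Older symbols were matched through RefSeq (GRCm38.p6, used for names and promoter windows). The sources used here do not give the files' genome build. The members and lists were chosen with earlier results of these data known. All members are named, with members of the other lists past the rule or else their highest and lowest, and Foxo1. Other genes were added after their values were seen, namely the convertases, Th, Sim1 and the receptors set beside their peptides. Agrp and Npy are named outside that choice too. The summary per gene was checked on simulated data, in which differences were exchanged between probe sets of like level and the mean of each was kept. That check cannot cover probe sets that enter the floor through 1 array, or that go together within a gene. Alternatives were other floors, summaries, probe set minimums, scalings, thresholds and the use of probe sets with several symbols. Python 3.11.15, numpy 2.4.6, pandas 2.3.3 and statsmodels 0.14.6 were used, and matplotlib 3.10.9 for figures.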

Additional observations from a re-analysis of the deposited data

How the results depend on the processing

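With 1 array per genotype, no alternative measures the spread between mice, and signal near the floor limits the members with few probe sets. No precursor was at least 2-fold higher under any of the 15 alternatives run. The count at least 2-fold lower was 4 as reported and from 3 to 5 under 11 alternatives, not always of the same genes. In 1 of these 11 the threshold was 1.5-fold. The share of all genes that were lower moved too, at 1.12% as reported and 4.9% with the 1.5-fold rule. It was 5.52% with the probe set of highest mean and 4.37% with the highest probe set on each array. A 75th percentile floor gave 1.57%, a floor on both arrays 0.704%, removing the trend 0.92% and centring 0.763%. With the probe set of highest mean the 3 lower members were Penk, Trh at -2.63 and Vgf at -1.05, so Penk alone of the reported 4 remained. In that setting, and with the highest probe set on each array, agreement in sign between probe sets played no part. The count was 2 with a 75th percentile floor (Npvf and Tac1, of 15 members evaluated), 2 with the floor asked of both arrays (Penk and Tac1), 2 with the trend on level removed (Npvf and Tac1) and 1 with differences centred on the gene median (Npvf). The members' median of -0.19 was -0.29 with at least 5 probe sets per gene, -0.075 after that centring and -0.12 with the trend removed, where all genes stood at -0.11, 0.00 and -0.05. Npvf, Tac1, Oxt and Penk stayed below 0 under each alternative that evaluated them, from -2.77 to -0.79, -2.23 to -0.08, -2.26 to -0.47 and -1.86 to -0.94. Repeats on genes of the other lists, and using the highest probe set on each array, were chosen after seeing the data. The highest probe sets gave 5 lower members, which were Oxt, Penk, Tac1, Trh at -2.06 and Vgf at -1.11, while Npvf stood at -0.79. No paired analysis was possible because each genotype had 1 array.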
